A study of Mus musculus with 8 samples.

Results

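Dlk1, Rian, Meg3 and Dio3 belong to the imprinted Dlk1-Dio3 domain on the distal part of mouse chromosome 12, and their RNA was followed through 4 stages of fat cell formation in 3T3-L1 cells. The 4 genes were taken by their symbols from the 22798 rows of the deposited table, and each symbol had 1 row. RNA came from 3T3-L1, a clonal preadipocyte line whose strain the labels give as Swiss albino, with 2 libraries per stage. The stages were exponential proliferation, quiescence (confluent for 48 hours), clonal expansion (the cocktail on for 10 hours) and differentiation (6 days from cocktail addition). The adipogenic cocktail held 1 µM dexamethasone, 0.25 mM isobutylmethylxanthine and 5 µg/µl insulin and stayed on for 48 hours, followed by medium with insulin. The proliferating and quiescent cells received no cocktail, and serum medium was common to all. The labels number the libraries as experiments 1 and 2 but do not say that they were separate cultures, so the p-values speak of the spread among these libraries alone, which could be technical.

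In an imprinted domain the copies inherited from the mother and from the father are used unequally. Here Dlk1, Rtl1 and Dio3 encode proteins and are transcribed mainly from the paternal chromosome, whereas Meg3, Rian and Mirg give noncoding RNAs from the maternal chromosome, with small nucleolar RNAs and microRNAs carried in or beside them. A methylated region between Dlk1 and Meg3 sets this choice. Dlk1, also called Pref-1, is a membrane protein of the Notch ligand family whose shed outer part blocks the conversion of preadipocytes into adipocytes. Dio3 is the deiodinase that inactivates thyroid hormones. The libraries carry no strand and the table does not separate the parental copies, so which copy gave the RNA is not measured here.

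The table gives the genes on the mm9 build. Dlk1 (gene ID 13386) lies at chr12:110691033-110701546, Meg3 (17263) at chr12:110779206-110809939, Rian (75745) at chr12:110842155-110899921 and Dio3 (107585) at chr12:111517440-111519307. Between Dlk1 and Dio3, ends included, stood 61 rows, of which 51 were microRNA genes. RefSeq sequences of the promoters follow on another build, GRCm38.p6, as 250 bases before to 50 bases after the start. The promoters of Dlk1 and of the first Meg3 start are shown, since these neighbouring genes had opposite patterns at differentiation. Capitals mark matches to TGACGTCA (the cAMP response element), TATAAA and CCAAT or their reverse complements.
Dlk1 promoter, chr12:109452573-109452872, plus strand: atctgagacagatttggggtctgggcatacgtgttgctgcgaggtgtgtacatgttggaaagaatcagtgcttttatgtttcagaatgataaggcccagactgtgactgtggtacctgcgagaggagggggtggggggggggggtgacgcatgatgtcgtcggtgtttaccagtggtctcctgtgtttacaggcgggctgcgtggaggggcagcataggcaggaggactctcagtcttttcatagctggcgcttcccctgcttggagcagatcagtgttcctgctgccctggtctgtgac
Meg3 promoter, chr12:109540746-109541045, plus strand: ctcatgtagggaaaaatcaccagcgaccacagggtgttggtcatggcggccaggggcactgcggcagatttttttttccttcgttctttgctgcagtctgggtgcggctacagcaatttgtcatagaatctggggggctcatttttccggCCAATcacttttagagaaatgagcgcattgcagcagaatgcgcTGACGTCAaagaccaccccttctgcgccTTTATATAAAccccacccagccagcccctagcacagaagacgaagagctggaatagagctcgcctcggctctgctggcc
The Meg3 window held TGACGTCA at position -57 from the start, CCAAT at -100, and TATAAA at -25 on one strand overlapping its reverse complement at -29. The Dlk1 and Rian windows held none of these letters. The Dio3 window, not shown, held TATAAA at -31, CCAAT at -48 and ATTGG, the reverse complement of CCAAT, at -125. Of 32851 RefSeq promoter windows of this length, 1.79% held TGACGTCA on either strand, 13.6% held TATAAA and 37.4% held CCAAT. The full palindromic glucocorticoid response element was in 0.00913% of windows and in none of the 4 genes. These are matches of letters only.

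The microRNAs of the interval are named for their mature products, which RefSeq gave for 51 of the 51 rows (96 sequences). Those of the 2 microRNA rows that reached 3 pseudo-counts in a library are shown with the seed, bases 2 to 8, in capitals. MicroRNA-127, processed from the transcript antisense to Rtl1, is added. Its row and the other 2 all lie within that of Rtl1.
mmu-miR-433-5p: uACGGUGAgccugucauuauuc
mmu-miR-433-3p: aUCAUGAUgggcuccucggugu
mmu-miR-136-5p: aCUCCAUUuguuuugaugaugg
mmu-miR-136-3p: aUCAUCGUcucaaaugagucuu
mmu-miR-127-5p: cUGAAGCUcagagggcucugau
mmu-miR-127-3p: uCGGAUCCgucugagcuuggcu
The 6 seeds differ from one another. The libraries were read as 100 nt and not prepared as small RNA, so a row at a microRNA gene is not a measure of the mature product.

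The values are pseudo-counts, which the authors made with edgeR by bringing each library to a common size after relative log expression factors. Totals therefore stayed unequal, at 122413485 to 127369893 in the stages without cocktail and 146570940 to 151529060 in those with it. One read was worth between 0.934 and 1.15 pseudo-counts by the most frequent value near 1 in each library, and library totals lay between 122413485 and 151529060. Stage markers followed the labels at quiescence and differentiation. All 10 adipocyte markers, among them Adipoq and Fabp4, were higher at differentiation than at quiescence, and their summed level was 5053920 to 5364922 at differentiation against 140084 to 147599 at quiescence. All 8 preadipocyte or fibroblast markers were lower at differentiation than at quiescence, and all 5 cycling cell markers were lower at quiescence than at proliferation. At clonal expansion the cycling cell markers were mixed. Against quiescence 3 of the 5 were higher and 2 not called, and against proliferation 1 was higher, 3 were lower and 1 was not called. The 2 quiescent libraries differed with transcript length: quiescence 2 was lower than quiescence 1 by a median log2 difference of -0.236 in the fifth of genes with the shortest transcripts and higher by 0.198 in the fifth with the longest. Values of the 4 genes at quiescence are therefore given by library. The 2 libraries of clonal expansion differed in the same directions but less, by -0.105 and 0.0558.

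The domain did not move as 1 unit. Dlk1 was highest at quiescence and far lower at differentiation, Rian was highest at quiescence and lowest at clonal expansion, Meg3 was near 0 except at differentiation, and Dio3 was near 0 throughout. Of the 4 genes, Dlk1 and Rian reached the mean of 10 (all libraries) that was needed to enter the test. Meg3 (mean 9.20) and Dio3 (mean 0.766) did not.

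**Figure D1:**
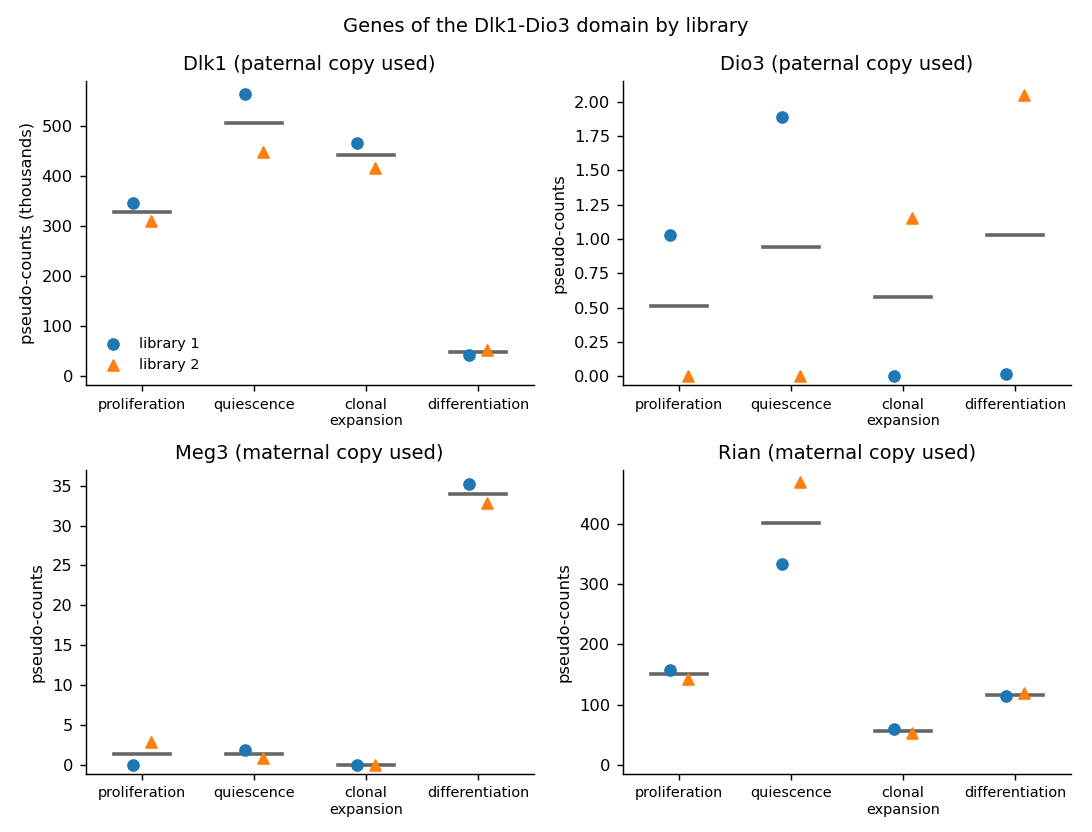
Pseudo-counts of the 4 genes in each library (circles, library 1; triangles, library 2), with the stage mean as a bar and a linear axis of its own for each gene. The differentiated libraries of Dlk1 (43216 and 51599) lie below all others, those of Meg3 (35.2 and 32.8) above all others, Rian peaks at quiescence, and Dio3 stays at or under 2.05.

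Dlk1, the inhibitor of adipogenesis, was among the most abundant RNAs before differentiation. The proliferating libraries held 345246 and 310009 pseudo-counts of it, the quiescent ones 564051 and 448657, those of clonal expansion 466642 and 415846, and the differentiated ones 43216 and 51599. The differentiated libraries lay below every other library and the proliferating ones below those of quiescence and clonal expansion, whereas the last of these stages overlapped with quiescence. Divided by its 5.657 kb of merged exons in the GENCODE M21 annotation, Dlk1 ranked 36 and 41 among 20508 rows in proliferating cells, 24 and 25 in quiescent cells, 37 and 39 during clonal expansion and 805 and 645 in differentiated cells. It took 0.0291% and 0.0345% of all pseudo-counts at differentiation and 0.443% and 0.356% at quiescence.

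At differentiation Dlk1 averaged 47408 ± 5927 pseudo-counts, against 506354 ± 81596 at quiescence (SD, n = 2 each), or 0.0936 times as much. The log2 fold change was -3.41 (SE 0.156, limma adjusted p = 4.88e-08), and 227 of the 14647 rows tested fell further. Against clonal expansion it fell by 3.22 on the log2 scale (limma adjusted p = 5.46e-08), and against proliferation by 2.79 (limma adjusted p = 1.53e-07). These 3 comparisons share the differentiated libraries. In a culture measured in bulk, fewer cells that express a gene and less RNA per cell cannot be told apart. The summed preadipocyte or fibroblast markers were 1244370 to 1496549 at differentiation and 3497474 to 3667630 at quiescence. They were 1761517 to 1959069 at clonal expansion and 1467564 to 1670461 at proliferation, which overlaps with differentiation. Col1a1 and Col3a1 made up most of these sums, with means of 1349400 and 1937657 at quiescence. The part of these markers in the fall of Dlk1 was not tested.

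At quiescence Dlk1 was 1.55 times its level at proliferation (506354 ± 81596 against 327628 ± 24916, SD, n = 2 each), a log2 fold change of 0.62 (SE 0.156, limma adjusted p = 0.018). This was a moderate rise, since 1495 rows rose further. It was lost without proliferation 2 (0.54, limma adjusted p = 0.149) or without quiescence 1 (0.46, limma adjusted p = 0.072). At clonal expansion Dlk1 averaged 441244 ± 35918 (SD, n = 2), a log2 difference of -0.19 from quiescence that did not pass the test (SE 0.156, limma adjusted p = 0.298). The call depended on scaling: with libraries scaled to the same total the difference was -0.43 (limma adjusted p = 0.0267) and with quantile normalization -0.71 (limma adjusted p = 0.000665). Against proliferation, clonal expansion was 0.43 higher on the log2 scale (limma adjusted p = 0.0337), a direction that turned to -0.38 with quantile normalization. The call was also lost without either library of either stage, with values of 0.35 to 0.51. Neighbours in the order quiescence, clonal expansion, proliferation were thus not separated firmly, whereas differentiation stood apart from all 3.

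Rian, a long noncoding RNA that hosts small nucleolar RNAs and microRNAs, was called at each step of the course, the last of which lost its call with quantile normalization. Its pseudo-counts were 158 and 142 in proliferating cells, 332 and 468 in quiescent cells, 59.0 and 53.2 during clonal expansion and 113 and 119 in differentiated cells. No libraries of different stages overlapped, with quiescence highest, then proliferation, differentiation and clonal expansion. Per kb of its 18.234 kb of merged exons these were 3.24 and 2.92 at clonal expansion and 18.2 and 25.7 at quiescence. Dlk1 per kb had 82489 and 73510 at clonal expansion and 99709 and 79310 at quiescence. Dlk1 exceeded Rian in pseudo-counts by 7910 and 7820 times at clonal expansion, against 1700 and 958 times at quiescence.

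Rian averaged 400.4 ± 96.3 at quiescence, against 149.9 ± 11.2 at proliferation (SD, n = 2 each). The log2 fold change was 1.39 (SE 0.227, limma adjusted p = 0.00212), and 395 of the 14647 rows rose further. During clonal expansion it fell to 56.1 ± 4.12, a log2 fold change of -2.79 from quiescence (SE 0.227, limma adjusted p = 3.38e-06), and 555 rows fell further. With quantile normalization this fold change was -2.13. Quiescence 2 had more Rian and less Dlk1 than quiescence 1, and the part of transcript length in these differences was not tested. With a trend on transcript length removed, an alternative chosen after seeing the data, the 2 log2 fold changes of Rian were 1.43 and -2.61.

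At differentiation Rian averaged 116.1 ± 3.91 (SD, n = 2), which lay between clonal expansion and proliferation. It was higher than at clonal expansion (log2 fold change 1.04, SE 0.227, limma adjusted p = 0.00204), but this fell to 0.16 with quantile normalization (limma adjusted p = 0.526). It was lower than at quiescence by a log2 fold change of -1.76 (limma adjusted p = 7e-05). The difference from proliferation, -0.36, did not pass the test (limma adjusted p = 0.179), although the libraries did not overlap. It passed with libraries scaled to the same total (-0.64, limma adjusted p = 0.0296) and with quantile normalization (-0.72, limma adjusted p = 0.0159). Clonal expansion was lower than proliferation by -1.40 (limma adjusted p = 0.000392).

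Against the calls over the whole table, the 2 tested genes stood as follows. Both rose at quiescence against proliferation, where 11.9% of the 14647 rows were called higher and 11.8% lower. At clonal expansion against quiescence, Rian fell and Dlk1 was not called, with 34.4% of rows called lower and 34.4% higher. At differentiation against clonal expansion they went opposite ways, Dlk1 lower and Rian higher, with 36.2% of rows lower and 36.8% higher. Both fell at differentiation against quiescence, where 32.9% were lower and 33.4% higher. Dlk1 alone of the 2 was called lower at differentiation against proliferation, where 33.3% were lower and 34.5% higher. At clonal expansion against proliferation Dlk1 was called higher and Rian lower, with 32.7% higher and 32.1% lower. Adjacent comparisons share a stage and are not independent.

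**Figure D2:**
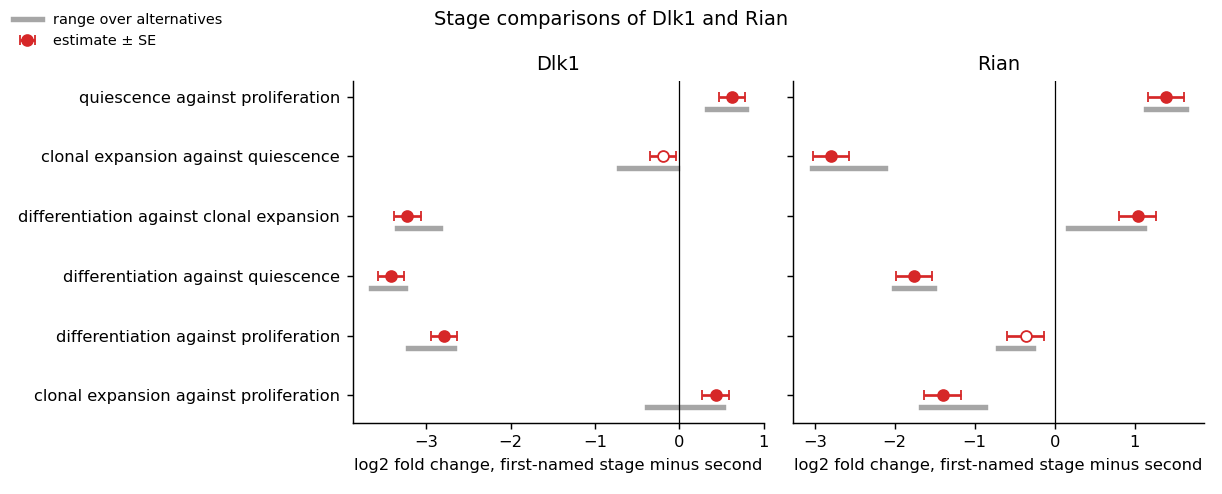
Log2 fold changes of Dlk1 (left) and Rian (right) in the 6 stage comparisons, first-named stage minus second, with the limma standard error (points; filled where the adjusted p was under 0.05) and the range over alternative settings (grey bars). The range for Dlk1 crosses 0 at clonal expansion against proliferation, and no range crosses 0 in the 3 comparisons of differentiation for Dlk1.

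Meg3, the noncoding RNA next to the methylated region, appeared at differentiation. Proliferating cells had 0.0120 and 2.82 pseudo-counts, quiescent cells 1.87 and 0.903, cells in clonal expansion 0 and 5.06e-09, and differentiated cells 35.2 and 32.8. Both differentiated libraries lay above all 6 others, none of which held more than about 3 reads. Summed over the 2 libraries, 68.0 pseudo-counts at differentiation stood against 2.77 at quiescence, a ratio of 24.5 (95% exact interval 7.43 to 113 on rounded sums). Against clonal expansion, where no read was counted, the 68.0 pseudo-counts were 22.7 times a floor of 3 counts over the group. This value carries no counting error and is not a confidence bound. The interval against quiescence covers counting error only.

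Without the filter on the mean, Meg3 was called higher at differentiation than at quiescence (log2 fold change 3.90, SE 0.661, limma adjusted p = 0.00945), where 21.1% of 22798 rows were called higher. It was also higher than at clonal expansion (limma adjusted p = 0.00326) and at proliferation (limma adjusted p = 0.00732), where 24.0% and 22.1% of rows were. With 1 library left out, the log2 fold change ranged from 3.61 to 4.20 against quiescence and from 3.19 without proliferation 1 to 5.11 without proliferation 2 against proliferation. No test was run on these. These fitted values depend on the pseudocount and bound nothing. Meg3 remained scarce even then: divided by its 18.089 kb of merged exons it had 1.95 and 1.81 pseudo-counts per kb at differentiation, against 6.22 and 6.52 for Rian and 7639 and 9121 for Dlk1 in the same libraries.

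Dio3, the thyroid hormone-inactivating enzyme, was at the limit of detection. Proliferating cells had 1.03 and 0 pseudo-counts, quiescent cells 1.89 and 0, cells in clonal expansion 0 and 1.15, and differentiated cells 0.0128 and 2.05. Every stage summed to under 3 counts, so no fold was formed and a difference was not detectable at this depth. Dio3os, which is transcribed from the opposite strand beside it, reached no more than 1.88 in any library, and its row ends before the Dio3 row begins.

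The other long transcripts of the interval were tested in the same fit. Rtl1, a retrotransposon-derived gene on the paternal copy, had 194 and 188 pseudo-counts in proliferating cells, 283 and 309.8 in quiescent cells, 113 and 120.3 during clonal expansion and 110.2 and 112 in differentiated cells. Its quiescent libraries were highest, and the differentiated ones lay just below those of clonal expansion, a log2 difference of -0.07 (limma adjusted p = 0.763) that was called at -0.91 with quantile normalization (limma adjusted p = 0.00142). Rtl1 was lower at clonal expansion than at quiescence (log2 fold change -1.34, limma adjusted p = 0.00013), and lower at differentiation than at quiescence (-1.41, limma adjusted p = 8.89e-05). Its rise at quiescence against proliferation (0.63, limma adjusted p = 0.037) was lost when any 1 of the 8 libraries was left out (limma adjusted p 0.0521 to 0.152). Reads of Rtl1 and of the maternal transcript antisense to it cannot be told apart.

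Mirg, the microRNA host at the far end of the maternal transcripts, had 37.1 and 41.0 pseudo-counts in proliferating cells, 48.1 and 40.8 in quiescent cells, 24.6 and 29.6 during clonal expansion and 6.36 and 11.6 in differentiated cells. The differentiated libraries were lowest, and those of proliferation and quiescence overlapped. Mirg fell at differentiation against quiescence (log2 fold change -2.23, SE 0.353, limma adjusted p = 0.000286) and against clonal expansion (-1.54, limma adjusted p = 0.00276). Within a library, Rian was 17.8 and 10.2 times Mirg at differentiation, against 2.4 and 1.8 times at clonal expansion and 6.90 and 11.5 times at quiescence. Rian against Rtl1 was 1.03 and 1.06 at differentiation, 0.524 and 0.442 at clonal expansion and 1.18 and 1.51 at quiescence. The noncoding transcripts Meg3, Rian and Mirg therefore did not keep 1 ratio across stages. At differentiation against clonal expansion Rian was higher, a call lost with quantile normalization, Meg3 was higher in the fit without the filter on the mean, and Mirg was lower.

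Of the 51 microRNA rows of the interval, 48 were below 1 pseudo-count in every library and 1 reached between 1 and 3. Mir433, which lies inside Rtl1 and is transcribed opposite to it, had 5.21 and 9.13 in proliferating cells, 12.8 and 17.1 in quiescent cells, 3.00 and 5.14 during clonal expansion and 7.57 and 7.60 in differentiated cells. Its quiescent libraries were highest, as were those of Rtl1. Mir136 reached 5.70 in quiescence 2 and Mir127 no more than 0.828, over a row only a few bases long. None of these rows was tested.

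Genes outside the interval but within 1 Mb of it gave a local comparison. Of the 22 tested, 8 were higher, 6 lower and 8 not called at differentiation against quiescence, with a median log2 fold change of 0.21, whereas all 4 tested genes inside the interval (Dlk1, Rtl1, Rian and Mirg) fell, with a median of -2.00. At quiescence against proliferation 3 were higher, 1 was lower and 18 were not called outside (median 0.00855), and inside 3 of 4 were higher (median 0.624). At clonal expansion against quiescence 11 were higher, 4 lower and 7 not called outside (median 0.301). Inside, 2 of 4 fell and none rose (median -1.02). Among all rows, 34.4% were called higher and 34.4% lower there. The shares were 11.9% and 11.8% at quiescence against proliferation, and 33.4% and 32.9% at differentiation against quiescence. With libraries scaled to the same total the outside counts were 5 higher and 6 lower at clonal expansion and 5 higher and 7 lower at differentiation, where their median was then -0.0256. Inside, that scaling gave 4 of 4 lower at clonal expansion, with Mirg at -0.93 (limma adjusted p = 0.0387). The same scaling tilted all 14647 rows downward: 3768 were called higher and 6302 lower at clonal expansion, and 3795 and 6314 at differentiation, each against quiescence. The nearest tested gene before Dlk1, Begain, which encodes a protein associated with guanylate kinases of the synapse, was lower at differentiation and higher at quiescence. It had 175 and 174 pseudo-counts at differentiation against 849 and 727 at quiescence (log2 fold change -2.16, limma adjusted p = 1.87e-06), and its log2 fold change at quiescence against proliferation was 0.89 (limma adjusted p = 0.00485). Of the 9 tested genes before Dlk1, 4 were lower at differentiation than at quiescence: Gm16596 (-2.32), Begain, Degs2 (-1.53) and Evl (-1.21). Another 4 were higher and 1 was not called, and the median log2 fold change of the 9 was 0.243.

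**Figure D3:**
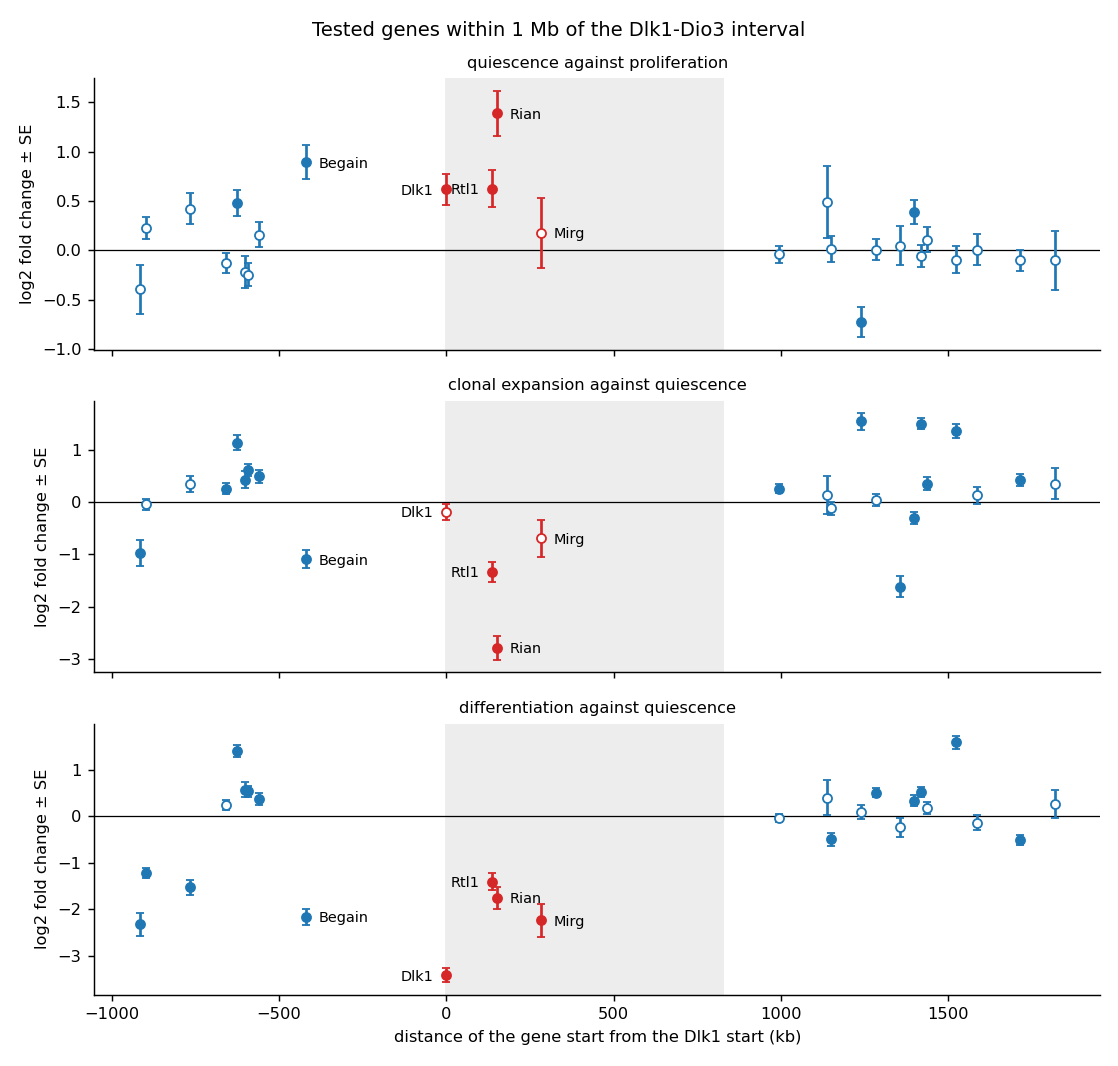
Log2 fold change ± limma SE of the 26 tested genes by distance of the gene start from that of Dlk1 in kb, for quiescence against proliferation, clonal expansion against quiescence, and differentiation against quiescence (red inside the shaded Dlk1-Dio3 interval, blue outside; filled where the adjusted p was under 0.05). In the lowest panel all 4 genes inside lie below 0, while the 22 outside lie on both sides, with Begain at -2.16.

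Genes with the most similar course were sought by the root mean square difference of centred log2 values over the 8 libraries, among 14646 other rows. For Dlk1 the nearest were Pdpn (0.195), Marcksl1 (0.20), Pcolce2 (0.213), Serpine2 (0.257) and Sarm1 (0.26), none of them on chromosome 12, where the median row stood at 1.46. Mirg was at place 240 and Begain at place 566 of this order, Rtl1 at 2664 and Rian at 8661. Pdpn, the membrane glycoprotein podoplanin, averaged 477 ± 81.6 pseudo-counts at differentiation against 4715 ± 176 at quiescence (SD, n = 2 each). For Rian the nearest were Igf1 (0.215), which encodes insulin-like growth factor, Itga2b (0.218), Thbs2 (0.223), Mylk3 (0.24) and Acot11 (0.246), against a median of 1.15. Rtl1 was at place 365 and Dlk1 at 12212. The order is a description of these libraries and has no p-value.

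**Figure D4:**
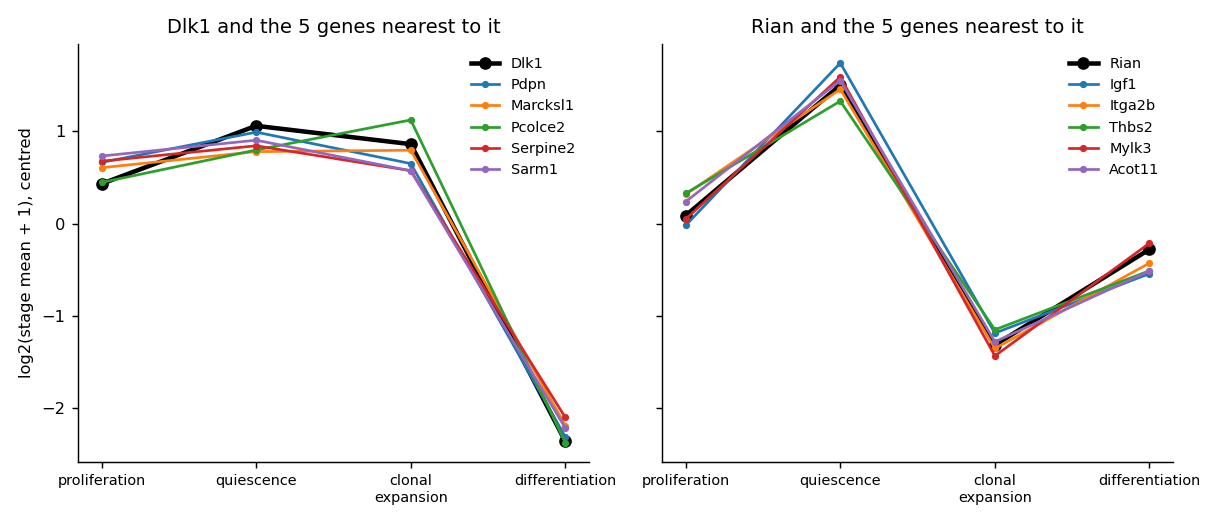
Stage means as log2(mean + 1), centred on each gene, for Dlk1 with its 5 nearest genes (left) and Rian with its 5 nearest (right). The genes near Dlk1 share a drop at differentiation, and those near Rian share a peak at quiescence and a low point at clonal expansion.

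Lists of genes that act with the members were counted. Dlk1 is shed by Adam17, and its action involves Notch receptors, fibronectin and Sox9, a factor that Dlk1 maintains in preadipocytes. Of 21 tested genes of this list, 4 were higher, 13 lower and 4 not called at differentiation against quiescence, with a median log2 fold change of -0.764 where that of all rows was 0.00617. Of all rows, 33.4% were called higher and 32.9% lower. Without quiescence 1 the counts were 2 higher and 12 lower, and without quiescence 2 they were 2 and 13. Sox9 averaged 2049 pseudo-counts at differentiation against 12560 at quiescence (log2 fold change -2.62, limma adjusted p = 2.95e-08). Dlk2, the paralog of Dlk1, had 26.0 and 20.2 at differentiation against 271 and 184 at quiescence (-3.23, limma adjusted p = 1.4e-06), but it had reached 2908 and 2823 at clonal expansion, where Dlk1 was not called against quiescence. Rbpj, the DNA-binding partner of Notch, was lower (-1.76, limma adjusted p = 2.35e-07), whereas Adam17 (0.68, limma adjusted p = 0.000102) and the Notch ligand Dll4 (2.30, limma adjusted p = 0.000109) were higher.

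At quiescence against proliferation, 2 of the 21 were higher, 3 lower and 16 not called (median 0.0691, all rows -0.00699). Among all rows 11.9% were called higher and 11.8% lower, and Dlk1 itself rose. Dlk2 was lower at quiescence (log2 fold change -1.40, limma adjusted p = 0.00303), as was Sox9 (-0.55, limma adjusted p = 0.00632). The 2 higher genes were the Notch ligands Jag2 (mean 267 against 158) and Jag1 (35804 against 28496). Both calls were lost with no mean-variance trend (limma adjusted p = 0.0518 and 0.0614). At clonal expansion against quiescence, where Dlk1 was not called, 3 were higher, 10 lower and 8 not called (median -0.449, all rows -0.00615). Among all rows 34.4% were called higher and 34.4% lower.

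The thyroid hormone list holds the other deiodinases, transporters, receptors and targets that meet the same hormones as Dio3. Of 19 tested, 13 were higher, 3 lower and 3 not called at differentiation against quiescence (median 0.781), beside 33.4% higher and 32.9% lower among all rows. Without quiescence 1 or 2 the higher calls numbered 12 and 14. Thrsp, a thyroid hormone-responsive gene of lipogenic cells, had the largest rise (log2 fold change 11.30, limma adjusted p = 3.21e-09), followed by the transporter Slc16a10 (7.71, limma adjusted p = 5.42e-07) and Sephs2, which makes the selenium donor for deiodinases (2.26, limma adjusted p = 2.45e-07). The receptor Thra fell (-0.66, limma adjusted p = 0.000352). Thrb, the other receptor, is named after its values were seen and went the other way. It had 33.7 and 34.3 pseudo-counts at differentiation against 11.2 and 5.45 at quiescence. Thrsp is also a gene of mature fat cells, whose markers rose in the same comparison.

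Dio2, the activating deiodinase, is named after its values were seen, as the counterpart of Dio3. Proliferating cells had 1.04 and 1.86 pseudo-counts of it, quiescent cells 1.79 and 5.62, cells in clonal expansion 224 and 306, and differentiated cells 16.9 and 20.6. It was higher at clonal expansion than at quiescence (log2 fold change 5.94, limma adjusted p = 2.92e-06), whereas Dio3 stayed at 0 and 1.15 in the libraries of clonal expansion. Dio1 reached no more than 3.08 in any library. Of the 19 thyroid hormone genes, 9 were higher and 7 lower at clonal expansion against quiescence (median 0.481). Among all rows 34.4% were higher and 34.4% lower there. At quiescence against proliferation, 4 of the 19 thyroid hormone genes were higher and 2 lower, beside 11.9% higher and 11.8% lower among all rows. Thra and Thrsp were among the higher ones, with means of 30958 and 39.7 at quiescence against 21439 and 16.3 at proliferation. With 1 library left out, the log2 fold change of Thra ranged from 0.40 to 0.67. The call of Thrsp was lost with no filter on the mean (1.31, limma adjusted p = 0.128). Hr, a thyroid hormone-responsive corepressor, was lower (-1.16, limma adjusted p = 0.000573).

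The imprint control list holds factors that protect imprints, add or remove DNA methylation or bind insulators, and Polycomb partners of the noncoding RNAs. Of 19 tested, 6 were higher, 11 lower and 2 not called at differentiation against quiescence (median -0.359), beside 33.4% higher and 32.9% lower among all rows. Without quiescence 1 the counts were 5 higher and 7 lower, and without quiescence 2 they were 5 and 8. Zfp57, which protects imprints by binding the methylated copy, averaged 751 pseudo-counts at differentiation against 8255 at quiescence (log2 fold change -3.45, limma adjusted p = 7.31e-09). Aff3 (-1.78, limma adjusted p = 5.9e-07), known to bind the control region of this domain, and Uhrf1 (-1.34, limma adjusted p = 1.12e-05), which brings Dnmt1 to replicated DNA, were also lower. Tet3, which oxidises methylated cytosine, was higher (0.79, limma adjusted p = 0.00271). At quiescence against proliferation 2 of the 19 were higher and 5 lower, beside 11.9% higher and 11.8% lower among all rows. Plagl1, itself an imprinted gene (3.42, limma adjusted p = 5.96e-05), and Dnmt3a (1.14, limma adjusted p = 0.000441) were higher. Uhrf1 (-1.50, limma adjusted p = 0.000106) and Dnmt1 (-0.93, limma adjusted p = 0.000524) were lower. Cycling cell markers fell with the last of these, and their part in it was not tested. Methylation of the domain was not measured in these libraries.

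**Figure D5:**
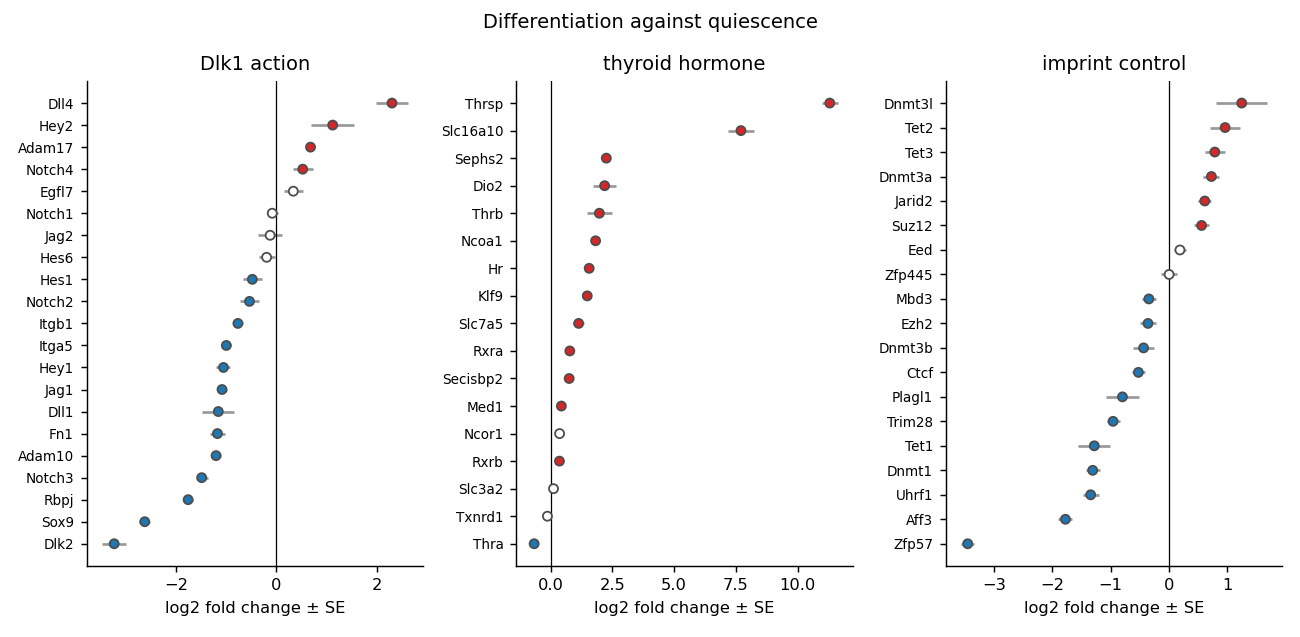
Log2 fold change ± limma SE at differentiation against quiescence for the tested genes of the 3 lists that are reported, ordered by value (red higher, blue lower, open not called at an adjusted p of 0.05). Sox9 and Dlk2 stand lowest in the Dlk1 action list, Thrsp highest in the thyroid hormone list and Zfp57 lowest in the imprint control list.

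Markers of other cell types were counted as well. The summed macrophage or blood markers were 730 to 741 at differentiation against 3647 to 4809 at quiescence. The endothelial markers summed to 134 to 161 against 292 to 294, and the muscle markers to 164 to 212 against 97.9 to 120. Lyz2 made up most of the macrophage or blood sum (mean 392 against 3791), whereas Cd68 averaged 301 against 262. Acta1 made up most of the muscle sum (183 against 104), whereas Myh3 averaged 3.23 against 4.10. Of the 6 macrophage or blood markers, 2 (Ptprc and Emr1) were below 1 in both differentiated libraries, as was 1 of the 5 endothelial markers (Tie1). The 4 epithelial markers summed to 859 to 1821 at differentiation against 7.41 to 8.15 at quiescence, with Krt18 and Krt8 the 2 that rose, while Epcam was at 0 in all 8 libraries. The part of these markers in the changes of the domain was not tested.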

How the data were processed

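RNA of 8 libraries was sequenced unstranded as single reads of 100 nt, per the labels' protocols. The deposited table gives a signal per gene, the pseudo-counts that the authors made with edgeR and relative log expression factors, per the file header. CASAVA 1.8.2, edgeR and mm9 are named in the submitters' processing notes, and the aligner and gene models are not given in the sources used here. Every value column belonged to 1 of the 8 samples. Whole reads could not be recovered, so no count model was fitted.

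With Python 3.11.15, pandas 2.3.3, numpy 2.4.6 and scipy 1.17.1, the table was read and summarised. For the 14647 rows with a mean of 10 or more, log2(value + 1) was modelled by stage in limma 3.58.1 (R 4.3.3), using the 8 libraries together and limma's mean-variance trend. Fold changes are on that scale, which understates changes of low genes. Residual degrees of freedom were 4, or 9.78 after moderation. P-values were two-sided and adjusted by Benjamini-Hochberg over these rows, with 0.05 as the threshold. The fit was tested on simulated data with known changes. Noise there was independent between libraries, so differences with transcript length or scaling were not covered. Where a library is left out, the lone library of its stage is assumed to vary like the others. Deviations of same-numbered libraries correlated above 0.1 for 2 of the 6 pairs of stages only, so the numbers were not taken as pairs. These 2 were quiescence with clonal expansion (r = 0.354) and quiescence with differentiation (r = 0.134).

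The members and lists were chosen with earlier results of these data known. The rule for named genes took the members, tested neighbours within 1 Mb, the 5 rows nearest in course, and up to 3 list genes per direction with the largest called change at differentiation against quiescence or quiescence against proliferation. Some of these are not described, and 2 genes of the thyroid hormone list are counted but not reported here. Merged exon lengths came from GENCODE M21, matched by symbol, and not from the authors' gene models. Alternatives were other pseudocounts, filters and scalings, no trend, a replicate block, only the stages compared, each library left out, and a trend on transcript length removed. The last was chosen after seeing the data, as were the counts of lists under other scalings and without a quiescent library.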

Additional observations from a re-analysis of the deposited data

How the results depend on the processing

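The log2 fold changes of Dlk1 and Rian were recomputed under 18 alternatives. Those of Meg3 were recomputed only with looser filters and with 1 library left out. Of 246 values, 227 were classed as unchanged. For Dlk1 and Rian this means the same direction and call. For Meg3 it means the same direction and a shift no larger than the SD of its log2 values within the 2 stages. The main value of Meg3 was itself taken without the filter, and its values with 1 library left out had no test. The rise of Dlk1 at quiescence against proliferation lost its call with no filter on the mean (0.62, limma adjusted p = 0.142), quantile normalization (0.33, limma adjusted p = 0.0814) and only the 2 stages compared (0.62, limma adjusted p = 0.0889), and ranged from 0.46 to 0.79 with 1 library left out. At clonal expansion against quiescence Dlk1 became called at -0.43 with libraries scaled to the same total and at -0.71 with quantile normalization. At clonal expansion against proliferation it lost its call with no filter (0.43, limma adjusted p = 0.167), the same total (0.15) and no trend (0.43, limma adjusted p = 0.0527), reversed to -0.38 with quantile normalization (limma adjusted p = 0.021), and ranged from 0.35 to 0.51 with 1 library left out. Rian at differentiation against clonal expansion lost its call with quantile normalization (0.16), and against proliferation became called with the same total (-0.64) and quantile normalization (-0.72). Meg3 at differentiation ranged from 5.08 to 5.18 against clonal expansion, 3.61 to 4.20 against quiescence and 3.19 to 5.11 against proliferation with 1 library left out. The cause was not tested. The fall of Dlk1 at differentiation against quiescence ranged from -3.58 to -3.25 with 1 library left out and kept its call under every alternative run, as did the fall of Rian at clonal expansion against quiescence, from -3.04 to -2.55 with 1 library left out and -2.13 with quantile normalization.

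With the experiment number as a replicate block, no call of Dlk1 or Rian changed (Dlk1 at quiescence against proliferation 0.62, limma adjusted p = 0.0151). Scaling to the same total moved the median of all rows by -0.232 at clonal expansion against quiescence, -0.233 at differentiation against quiescence, -0.274 at differentiation against proliferation and -0.271 at clonal expansion against proliferation. The share of calls that were higher was then 37.4%, 37.5%, 36.6% and 33.2% in this order, where higher and lower calls were near even as deposited (50.3% to 50.9% higher in the last 3). Quantile normalization moved the median of comparisons with differentiation by -0.103 to -0.116. With no filter on the mean, 1757 rows were called at quiescence against proliferation, against 3472 with it. For the other genes named, 882 of 954 values kept direction and call. Only Begain at clonal expansion against proliferation reversed, to 0.25 with quantile normalization. Depth limits Meg3 before differentiation and Dio3 throughout, where a stage held about 3 reads or fewer.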
